A study of Homo sapiens with 8 samples.

Results

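The genes that copy the genome in S phase were described in 2 human T cell lines, MT-1 and MT-2, used to study adult T cell leukemia and exposed to a DNA demethylating agent, an EZH2 inhibitor, or both. They are 39 named genes of the replication machinery, its nucleotide supply and its transcription factors. They were listed by name from known function and found by gene symbol in the annotation of the arrays, where each had 1 probe set, out of 17687 named genes and 21448 transcript probe sets. All 39 passed the filter on low values, which kept 12942 probe sets.

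RNA was measured on 8 one-colour Affymetrix arrays, 1 for each cell line and treatment. MT-1, an established adult T cell leukemia line, received 500 nM OR21, 2500 nM EPZ-6438, both compounds at these doses, or neither. MT-2 cells, a T cell line transformed by the virus HTLV-1, received 100 nM OR21, 500 nM EPZ-6438, both at these doses, or neither. Exposure lasted 96 h, with each compound added at seeding and once more during culture. OR21 is the demethylating agent, and EPZ-6438 inhibits EZH2, the enzyme that methylates lysine 27 of histone H3. Line and dose cannot be told apart, since MT-1 received the higher dose of each compound. Each line is 1 established culture, and no difference between the lines in the size of a treatment's change was tested.

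Values are log2 signals after robust multi-array averaging (RMA), and a change is the treated array minus the untreated array of the same line on that log2 scale. The highest value on an array lay between 18.3 and 18.8, above what scanner signals usually give after RMA. The sources used here do not state whether the values were rescaled, so differences and ratios hold for the values as deposited, read as plain log2. With 1 array per line and treatment, a change within a line has no replicate, and no p-value is given for it. The treatment tests, by limma over all 8 arrays, take the 2 lines as replicates. Array medians lay between 6.44 and 6.68. Background, the 95th percentile of 612 negative-control probe sets, lay between 7.19 and 7.80, and 31 of the 39 genes were above it on all 8 arrays. ORC6, CDT1, MCM10, POLE2, POLD1, LIG1, E2F1 and E2F2 were not. Where 1 side of a comparison was not above background, the difference is given as a bound, and where neither side was, no difference is given for the gene by itself. Such genes still count, at their raw values, in the medians and counts over the 39.

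T cell identity was checked with 12 marker genes, of which 6 were above background on each MT-1 array and 4 or 5 on each MT-2 array. IL2RA, the interleukin 2 receptor chain typical of these leukemic cells, read 15.10 to 16.96 across the 8 arrays. CD3D, CD3E and CD3G, which define the T cell receptor complex, were not above background on any array. CD4 was above background on MT-2 arrays only, and CD28 on MT-1 arrays only. Of 9 markers of other blood cells, 0 or 1 was above background on any array.

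Replication starts when the origin recognition complex (ORC1 and ORC6 among its subunits) and the loaders CDC6 and CDT1 place the MCM2-7 helicase on DNA in G1, a step called licensing. CDC45 and the GINS complex then activate the helicase, with MCM10, and DNA polymerase alpha with its primase, polymerase epsilon and polymerase delta copy the strands. The clamp PCNA, its loader RFC, the nuclease FEN1 and the ligase LIG1 complete the lagging strand, while ribonucleotide reductase and thymidylate synthase supply precursors and CAF-1 repacks the DNA into nucleosomes. Many of these genes are transcribed at the G1 to S boundary by E2F factors, which bind short GC-rich sites near the start of transcription.

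The promoters were read from RefSeq on build GRCh38.p14, in windows of 250 bases before to 50 bases after the start. A window was found for 36 of the 39 genes, and none is shown for MCM4, MCM5 and GINS4. The letters TTTCCCGC, TTTGGCGC, TTTCGCGC or TTTGCCGC, forms of the E2F site, were searched on both strands. They occurred in 21 of 44 windows of these genes (47.7%), against 3.31% of all 35116 windows. Of 29 matches, 25 began before the start and 19 within 100 bases before it, and 6 overlapped another E2F match. The windows of these genes also held more GC, with a median of 65.7% against 58.7% over all windows. The CCAAT box (CCAAT) was in 61.4% of the windows of these genes against 34.6% of all windows, and the GC box (GGGCGG) in 75% against 45%. Of the E2F matches, 4 overlapped one of these or the CHR motif. The CHR motif of mitotic genes (TTTGAA or TTCGAA) was in 2 of 44 windows (4.55%), against 16.4% of all windows. In 23 windows of genes from a list of mitotic genes, CHR letters occurred in 16 and E2F letters in 4. A match is a description of the letters and not of a bound site.

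The 130 bases before the start are shown for the 4 genes with E2F letters in this stretch that were lowest on average under both compounds, and for E2F1 and PCNA. The average is of raw values, and LIG1 in MT-1 and CDT1 in MT-2 were under background both untreated and with both compounds. Capitals mark the E2F letters on either strand. They lie at chr19:48170345-48170474 (minus strand) for LIG1, chr2:135876444-135876573 (minus) for MCM6, chr16:88803659-88803788 (plus) for CDT1, chr11:65261832-65261961 (plus) for POLA2, chr20:33686386-33686515 (minus) for E2F1 and chr20:5126623-5126752 (minus) for PCNA. Each is written 5′ to 3′ along the strand of its gene. In MCM6, 2 matches on opposite strands overlap.
LIG1: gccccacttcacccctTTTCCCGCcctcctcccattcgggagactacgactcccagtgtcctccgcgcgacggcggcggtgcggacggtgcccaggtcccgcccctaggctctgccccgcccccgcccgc
MCM6: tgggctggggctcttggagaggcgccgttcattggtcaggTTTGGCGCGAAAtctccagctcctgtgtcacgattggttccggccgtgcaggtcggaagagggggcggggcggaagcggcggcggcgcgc
CDT1: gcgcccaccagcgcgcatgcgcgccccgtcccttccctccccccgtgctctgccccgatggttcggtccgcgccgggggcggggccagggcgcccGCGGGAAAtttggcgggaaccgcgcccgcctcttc
POLA2: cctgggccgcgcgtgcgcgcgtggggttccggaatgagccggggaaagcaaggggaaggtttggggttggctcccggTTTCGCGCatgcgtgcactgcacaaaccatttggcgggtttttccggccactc
E2F1: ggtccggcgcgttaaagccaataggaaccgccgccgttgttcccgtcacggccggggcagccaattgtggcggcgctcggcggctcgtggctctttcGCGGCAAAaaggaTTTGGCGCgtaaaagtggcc
PCNA: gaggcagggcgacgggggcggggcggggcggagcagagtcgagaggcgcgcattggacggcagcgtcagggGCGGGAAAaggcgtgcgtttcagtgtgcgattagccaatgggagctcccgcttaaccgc

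The study asked what both compounds do together. Under both, the replication genes lay mostly below the untreated level in each line, with a median change of -0.34 for MT-1 and -0.57 for MT-2. These are 0.788 and 0.676 times the untreated signal. The median of all 12942 probe sets tested was -0.05 for MT-1 and -0.02 for MT-2. In MT-1, 15 of 39 genes (38.5%) were lower by 0.5 or more, where 25.7% of all probe sets were, and 1, E2F2, was higher by 0.5, where 22.4% of all were. In MT-2, 22 of 39 (56.4%) were lower by 0.5 or more, where 15.1% of all probe sets were, and 0 were higher by 0.5, where 16.4% of all were. Among the 35 genes above background on both of these MT-1 arrays, 11 were lower by 0.5, with a median of -0.25. Among the 31 such genes in MT-2, 17 were, with a median of -0.57.

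Few genes were lower by 1 or more, too few to read their overlap between the lines. Of those named next, POLE2 and POLD1 were under background in MT-2 both untreated and with both compounds, as was LIG1 in MT-1. In MT-1, 4 genes (10.3%) were lower by 1, namely POLA1, POLE2, POLD1 and RFC2, near the 9.64% of all probe sets. In MT-2, 5 genes (12.8%) were, namely MCM2, MCM6, CDC45, PRIM1 and, in raw values, LIG1, where 1.95% of all probe sets were. The MT-1 values also moved with the scaling of the arrays: the median was -0.58 with each array centred on its median (all probe sets -0.29), -0.15 with cyclic loess (all 0.08), and -0.27 with values under background set to it (all -0.27, the shift of the background itself). In MT-2 it was -0.62 (all probe sets -0.08), -0.53 (all 0.03) and -0.40 (all -0.17) under these 3 settings, in the same order.

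**Figure D1:**
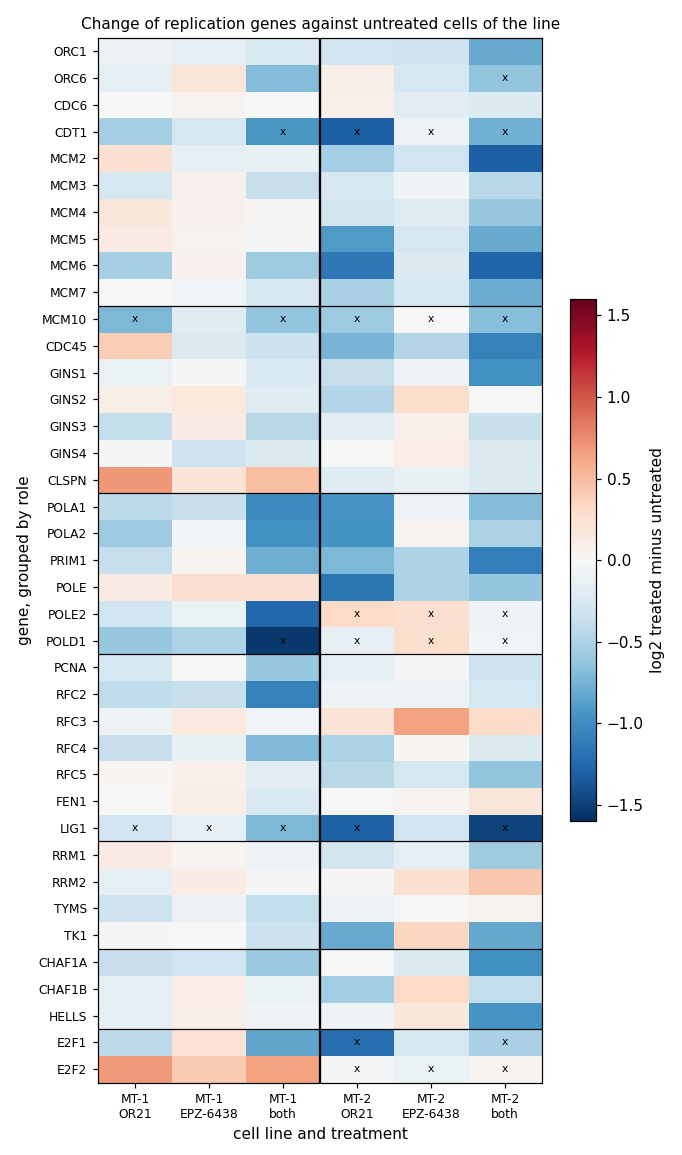
Change of each of the 39 genes (rows, grouped by role) on each treated array against the untreated array of its line (columns, OR21, EPZ-6438 and both for MT-1, then for MT-2), in log2 units by colour, blue for lower; x marks a comparison with at least 1 side not above background. The columns for both compounds are mostly blue, with medians of -0.34 for MT-1 and -0.57 for MT-2, and the EPZ-6438 columns are pale.

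No gene passed limma's test for both compounds against untreated cells at an adjusted p under 0.05, and 0 of all 12942 probe sets did. At an unadjusted p under 0.05, 12 of the 39 were lower (30.8%), where 10% of all probe sets were lower, and 0 were higher, where 9.19% of all were. The lowest adjusted p was 0.17, for PRIM1 (mean change -0.94, SE 0.21, below untreated in both lines). The design leaves 3 residual degrees of freedom. Markers of other cells stood apart most on the MT-1 array with both compounds. Of 8 markers of epithelial, endothelial and fibroblast cells, 4 (EPCAM, KRT8, KRT18 and COL1A2) were above background in MT-1 with both compounds, against 1 in untreated MT-1 cells. The summed log2 level of the 8 markers in MT-1 was 51.95 with OR21, 47.03 with EPZ-6438 and 61.9 with both, against 45.8 untreated. In MT-2 it ranged from 48.9 to 49.7 on the treated arrays, against 49.0 on the untreated one. The part of these markers in the result was not tested. On bulk arrays, fewer cells in S phase and less RNA per cell cannot be told apart.

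**Figure D2:**
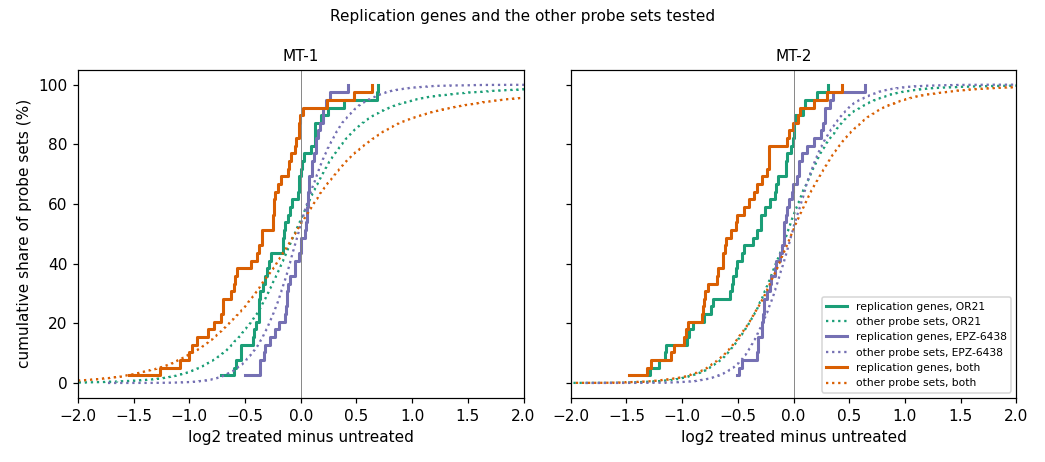
Cumulative share of probe sets (vertical axis, %) by change against the untreated array of the line (horizontal axis, log2), for the 39 replication genes (solid) and the other probe sets tested (dotted), with MT-1 on the left and MT-2 on the right. In MT-2 the solid curves for OR21 and both compounds lie mostly left of their dotted curves, which extend to lower changes. In MT-1 the dotted curve for both compounds extends beyond the solid one at both ends.

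Counts by role and by list with both compounds stand against the share of all probe sets lower by 0.5, which was 25.7% for MT-1 and 15.1% for MT-2. Of 10 licensing genes, 3 were in MT-1, near that share, and 8 in MT-2. Their median was -0.25 for MT-1 (-0.08 with cyclic loess, -0.48 with arrays centred on their medians) and -0.78 for MT-2. MCM6, a helicase subunit, read 10.73, 11.33 and 10.69 on the MT-1 arrays with OR21, EPZ-6438 and both, against 11.26 untreated. The MT-2 levels of MCM6 were 10.00, 10.91 and 9.86, against 11.14 untreated. In each line the 2 arrays with OR21, alone or with EPZ-6438, were low and the EPZ-6438 array was near the untreated one. The mean change of MCM6 over both lines was -0.93 with both compounds (SE 0.24, limma adjusted p = 0.18) and -0.84 with OR21 alone (SE 0.24, adjusted p = 0.57).

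MCM2, another helicase subunit, had one of the 3 widest gaps between the lines in its change with both compounds. It read 12.02, 11.64 and 11.66 with OR21, EPZ-6438 and both in MT-1, against 11.77 untreated, so all 4 arrays lay close together. Its MT-2 levels were 9.83, 10.05 and 9.06, against 10.37 untreated, and the array with both compounds was lowest, at 0.403 times the untreated signal. MCM5 had changes of -0.01 for MT-1 and -0.80 for MT-2 under both compounds, MCM7 of -0.25 for MT-1 and -0.79 for MT-2, MCM4 of 0.02 for MT-1 and -0.61 for MT-2, and MCM3 of -0.37 for MT-1 and -0.45 for MT-2. The helicase is a ring of MCM2-7 in equal parts, and its 6 genes spanned -0.57 to 0.02 in MT-1 and -1.31 to -0.45 in MT-2. ORC1, the largest subunit of the origin recognition complex, had changes of -0.24 for MT-1 and -0.81 for MT-2. ORC6, another subunit, had a change of -0.70 for MT-1 and was lower by 0.19 or more in MT-2, where it was not above background with both compounds. CDC6 lay at -0.01 in MT-1 and at -0.22 in MT-2, where it was the licensing gene nearest to untreated. CDT1, the MCM loader whose protein is destroyed in S phase, was lower in MT-1 by 0.70 or more, and was not above background on either of these MT-2 arrays.

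Among the genes of helicase activation, 1 of 7 was lower by 0.5 in MT-1 and 3 of 7 in MT-2 under both compounds. MCM10, which helps to switch the helicase on, was above background on only 2 arrays, both of MT-1, and was lower there by 0.29 or more. CDC45, which holds the active helicase together with GINS, read 12.06, 11.44 and 11.33 in MT-1 with OR21, EPZ-6438 and both, against 11.67 untreated. On the MT-2 arrays it read 10.11, 10.38 and 9.77, against 10.85 untreated. With both compounds it was the lowest array in each line, while OR21 alone gave the highest array in MT-1. The GINS subunits lay close together in MT-1, where GINS1 had a change of -0.24, GINS3 of -0.45, GINS4 of -0.23 and GINS2 of -0.20. In MT-2 they were spread out, with GINS1 at -0.96, GINS3 at -0.35, GINS4 at -0.23 and GINS2 at -0.00. GINS4 read 9.99, 9.68 and 9.78 in treated MT-1 cells against 10.01 untreated, and 8.28, 8.39 and 8.04 in treated MT-2 cells against 8.28 untreated. CLSPN, the adaptor claspin of the replication checkpoint, lay above untreated in MT-1 (0.69 with OR21, 0.20 with EPZ-6438, 0.48 with both) and at -0.22 in MT-2 with both.

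The polymerase genes had the lowest median of the 7 roles in MT-1. Under both compounds, 5 of 6 were lower by 0.5 there, with a median of -0.99, and 4 of 6 in MT-2, with a median of -0.56. PRIM1, the catalytic primase subunit that lays down RNA primers, read 11.76, 12.17 and 11.34 in MT-1 with OR21, EPZ-6438 and both, against 12.12 untreated. In MT-2 it read 10.82, 11.06 and 10.45, against 11.55 untreated. The array with both compounds was lowest in both lines, and EPZ-6438 alone was near untreated in MT-1 only. POLA1 and POLA2, the catalytic and the accessory subunit of polymerase alpha, had changes of -1.01 and -0.97 in MT-1 and of -0.69 and -0.51 in MT-2.

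POLE2, a small subunit of polymerase epsilon, read 10.22, 10.43 and 9.28 in MT-1 with OR21, EPZ-6438 and both, against 10.54 untreated. The array with both compounds stood below the other 3, at 0.418 times the untreated signal. In MT-2 POLE2 read 7.57, 7.53 and 7.21, against 7.26 untreated, with neither the array with both compounds nor the untreated one above background. POLD1, the catalytic subunit of polymerase delta, read 7.82, 7.92 and 6.88 in MT-1, against 8.42 untreated, lower by 1.23 or more with both compounds. The MT-2 levels of POLD1 were 5.99, 6.41 and 6.08, against 6.13 untreated, under background on all 4 arrays. POLE, the catalytic subunit of polymerase epsilon, had changes of 0.13, 0.26 and 0.24 in MT-1 and of -1.15, -0.51 and -0.62 in MT-2 under OR21, EPZ-6438 and both.

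Clamp, loader, nuclease and ligase genes were lower by 0.5 in 4 of 7 cases in MT-1 and 2 of 7 in MT-2 under both compounds, with medians of -0.60 for MT-1 (-0.27 with values under background set to it) and -0.28 for MT-2. PCNA, the sliding clamp, read 13.93, 14.21 and 13.61 in MT-1 with OR21, EPZ-6438 and both, against 14.21 untreated. Its MT-2 levels were 14.32, 14.44 and 14.14, against 14.47 untreated. Both lines had the lowest PCNA level with both compounds and close to the untreated level with EPZ-6438 alone, and the mean change with both was -0.47 (SE 0.19, limma adjusted p = 0.26). RFC2, a subunit of the clamp loader, had changes of -1.09 for MT-1 and -0.28 for MT-2, RFC5 of -0.17 for MT-1 and -0.63 for MT-2, and RFC3 of -0.04 for MT-1 and 0.30 for MT-2. RFC4, of the same complex, read 13.85, 14.10 and 13.52 in treated MT-1 cells against 14.22 untreated, and 12.38, 12.91 and 12.67 in treated MT-2 cells against 12.89 untreated. FEN1, the nuclease that trims Okazaki fragments, had changes of -0.25 for MT-1 and 0.19 for MT-2.

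LIG1, the ligase that seals those fragments, was above background on only 2 arrays, both of MT-2. In MT-1 it read 6.36, 6.53 and 5.95 with OR21, EPZ-6438 and both, against 6.66 untreated, with no value above background. In MT-2 it read 6.94, 7.91 and 6.75, against 8.23 untreated, which is lower by 0.67 or more with OR21 and by 0.59 or more with both. The arrays with OR21, alone or with EPZ-6438, were not above background there.

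The 4 nucleotide supply genes had changes of -0.39 to -0.02 in MT-1 with both compounds. With both compounds the 4 genes had a median of -0.22 there (-0.07 with cyclic loess, -0.45 with arrays centred on their medians) and 0 were lower by 0.5, and in MT-2 the median was -0.25 and 2 were. TK1, the thymidine kinase of S phase cells, read 12.32, 12.33 and 11.99 in MT-1 with OR21, EPZ-6438 and both, against 12.33 untreated. On the MT-2 arrays it read 10.53, 11.68 and 10.51, against 11.33 untreated, so both arrays with OR21 were low and the EPZ-6438 array was highest. RRM2, the S phase subunit of ribonucleotide reductase, read 14.91, 15.19 and 15.04 in treated MT-1 cells against 15.06 untreated, and 12.60, 12.83 and 13.01 in treated MT-2 cells against 12.58 untreated. RRM1, its partner subunit, had changes of -0.09 for MT-1 and -0.56 for MT-2, and TYMS, thymidylate synthase, of -0.39 for MT-1 and 0.06 for MT-2.

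The 3 chromatin genes had a median of -0.10 for MT-1 (0.09 with cyclic loess, -0.34 with arrays centred on their medians) and -0.95 for MT-2 with both compounds. CHAF1A, the large subunit of the histone chaperone CAF-1, read 10.35, 10.41 and 10.14 in MT-1 with OR21, EPZ-6438 and both, against 10.73 untreated. In MT-2 it read 9.22, 9.00 and 8.23, against 9.22 untreated. In MT-2 the level with OR21 alone equalled the untreated one at this precision, and the level with both was 0.506 times the untreated signal. HELLS, a chromatin remodeller needed for DNA methylation, had changes of -0.16, 0.10 and -0.06 in MT-1 with OR21, EPZ-6438 and both, and of -0.07, 0.18 and -0.95 in MT-2. CHAF1B, the partner of CHAF1A, had changes of -0.10 for MT-1 and -0.40 for MT-2 with both.

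The E2F genes are transcription factors of this program. E2F1 read 8.87, 9.51 and 8.45 in MT-1 with OR21, EPZ-6438 and both, against 9.29 untreated, lowest with both. Its MT-2 levels were 6.70, 7.62 and 7.39, against 7.91 untreated, where the 2 arrays with OR21 were not above background and the differences were lower by 0.34 or more with OR21 and by 0.27 or more with both. E2F2 read 11.00, 10.74 and 10.95 in MT-1, against 10.31 untreated, above the untreated level on all 3 treated arrays. Its MT-2 levels were 4.92, 4.83 and 4.98, against 4.94 untreated, under background throughout.

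**Figure D3:**
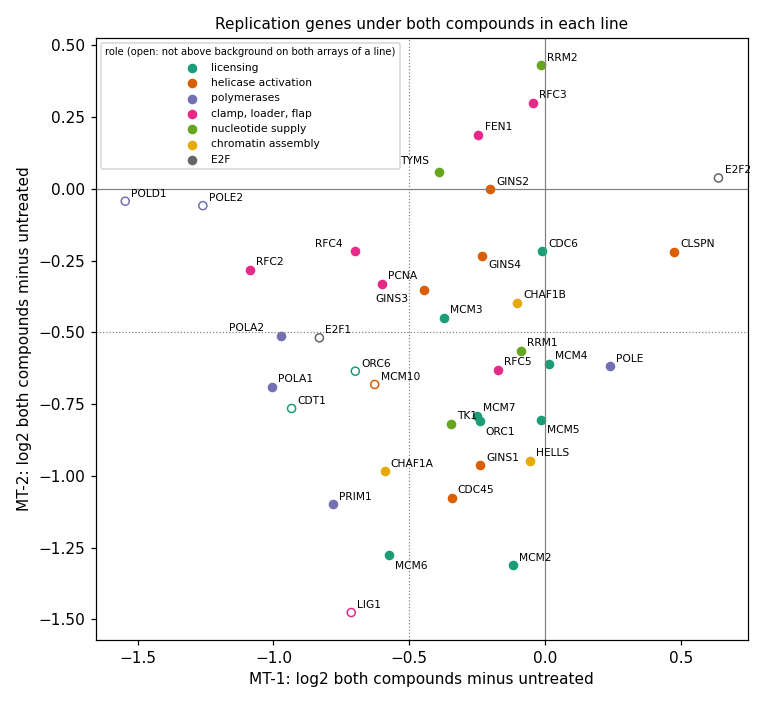
Change of each gene with both compounds in MT-1 (horizontal axis, log2) and MT-2 (vertical axis, log2), coloured by role, with open circles where a gene was not above background on both arrays of a line and dotted lines at -0.5. LIG1, MCM2 and MCM6 lie lowest on the MT-2 axis, POLD1 and POLE2 farthest left on the MT-1 axis, and the lower left field holds the 10 genes lower by 0.5 or more in both lines.

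The genes lower in the lines overlapped in part. With both compounds, 10 genes were lower by 0.5 or more in each of the lines, where 5.56% of all probe sets were: ORC6, CDT1, MCM6, MCM10, POLA1, POLA2, PRIM1, LIG1, CHAF1A and E2F1. They were 66.7% of the 15 such genes in MT-1 and 45.5% of the 22 in MT-2, and 5 of the 10 were not above background on every array compared. Over all 39 genes, 56.4% were lower by 0.5 in MT-2 and 38.5% in MT-1, not far from these shares. Whether the overlap exceeds what the counts in each line give was not tested. Across the 39 genes the changes in MT-1 and MT-2 had a Pearson correlation of 0.11 and a Spearman correlation of 0.14, given as a description since the genes share arrays. The array with both compounds was the lowest of 4 for 28 genes in MT-1, where that held for 36.4% of all probe sets, and for 24 genes in MT-2, where it held for 26.2%. It was the lowest in both lines for 18 genes, where 12.1% of all probe sets were. With 28 and 24 of the 39 genes lowest there in the single lines, a large overlap is given by these counts alone.

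OR21 alone was given at different doses, and its values are set side by side. In MT-1, at the higher dose, 5 of 39 (12.8%) were lower by 0.5 or more, where 17.9% of all probe sets were, and the median was -0.15 against -0.06 for all. In MT-2, 16 of 39 genes (41%) were lower by 0.5 or more, where 14.5% of all probe sets were, and 5 by 1 or more, where 1.69% were. Of these 5, MCM6 and POLE were above background on both arrays, LIG1 and E2F1 have only the bounds given above, and CDT1 was above background on neither. The MT-2 median was -0.32 against -0.06 for all. The MT-1 count was 12 with arrays centred on their medians, where 27.0% of all probe sets were, and 3 with cyclic loess, where 14.4% were. In raw values 4 genes were lower by 0.5 in both lines, where 4.27% of all probe sets were: MCM6 and POLA2, and CDT1 and MCM10, which were above background on neither MT-2 array. In limma, 0 genes passed at an adjusted p under 0.05, as 0 of all probe sets did. At an unadjusted p under 0.05, 8 were lower (20.5%, where 5.12% of all were) and 0 higher (3.21% of all).

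With EPZ-6438 alone the replication genes lay near the untreated level. The median change was 0.04 for MT-1 and -0.08 for MT-2, where all probe sets had -0.02 in each. POLD1 in MT-1 (-0.50) and POLE in MT-2 (-0.51) were the only genes of the 39 lower by 0.5, 1 of 39 in each line, where the share of all probe sets was 7.23% for MT-1 and 6.49% for MT-2. RFC3 in MT-2 (0.64) was the 1 gene higher by 0.5, where 7.55% of all were. In limma, 0 genes passed, also at an unadjusted p under 0.05, where 0.974% of all probe sets were lower and 1.23% higher.

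The added effect was read by setting the arrays with both compounds against those with 1. Against EPZ-6438 alone, the median with both was -0.29 for MT-1 and -0.41 for MT-2, and 14 genes were lower by 0.5 in MT-1, where 20.9% of all probe sets were, and 16 in MT-2, where 9.09% were. Against OR21 alone, the median with both was -0.22 for MT-1 (all probe sets -0.01) and -0.17 for MT-2 (all 0.06). In MT-1, 6 genes (15.4%) were lower by 0.5, near the 11.9% of all. In MT-2, 5 (12.8%) were, where 8.26% of all were. The 6 in MT-1 were POLE2, POLD1 (in raw values, under background with both), CDC45, RFC2, POLA1 and ORC6. In MT-2, CHAF1A (-0.98), HELLS (-0.88), MCM2 (-0.77), ORC6 (-0.74 in raw values, under background with both) and GINS1 (-0.60) were those 5, while 3 genes were higher by 0.5, where 14.7% of all were: POLE, by 0.53, and E2F1 and CDT1, neither above background on these arrays. limma passed 0 genes in both comparisons. At an unadjusted p under 0.05, 8 genes were lower against EPZ-6438 (4.81% of all probe sets) and 2 against OR21 (2.37%).

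The sum of the 2 single changes was subtracted from the change with both, which is 0 where effects add on the log2 scale. In MT-1 this excess was below 0 for 34 of 39 genes, where 48.4% of all probe sets were, with a median of -0.21 against 0.02 for all. It was lower by 0.5 or more for 4 genes (10.3%), near the 12.8% of all probe sets, and higher by 0.5 for 0, where 16.5% of all were. POLE2 (-0.83), ORC6 (-0.75) and E2F1 (-0.64) were lowest. In MT-2 it was below 0 for 20 of 39, where 42.7% of all were, with a median of -0.11 against 0.08 for all, or 0.10 against 0.31 for all with values under background set to it. The MT-2 excess ranged from HELLS (-1.06) to POLE (1.04). It was lower by 0.5 or more for 5 genes (12.8%, where 9.27% of all were) and higher for 3 (7.69%, where 16% of all were). E2F1 and CDT1 among the higher and POLE2 among the lower rest in part on MT-2 values under background. All 4 arrays of a line enter each value, so the error of 1 array touches all 39 genes at once. limma passed 0 genes for the excess, also at an unadjusted p under 0.05, where 0.711% of all probe sets were lower and 1.01% higher.

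The lines differed in the level of most of these genes. E2F2 and POLD1 reached the filter on low values through MT-1 arrays only and are left out of the next counts. In limma over all 8 arrays, 27 of the other 37 genes were higher in MT-1 than in MT-2, at an adjusted p under 0.05. LIG1 was the 1 gene lower. Of all probe sets, with none left out, 63.4% passed, 40.7% higher and 22.7% lower. The median difference over all 39 genes was 1.2, against 0.30 for all probe sets. On all 4 MT-1 arrays 27 of the 39 genes, E2F2 and POLD1 among them, lay above all 4 MT-2 arrays, where 36.4% of all probe sets did. Of the others, 1 lay below, where 20.6% of all did, and 11 overlapped. With cyclic loess the median of the 39 was 0.73 (all -0.00), with 21 of the 39 higher and 3 lower, E2F2 and POLD1 not left out. The share of all probe sets passing with cyclic loess is not given. The 4 arrays of a line are 1 line under 4 treatments, so the test does not cover other cultures.

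**Figure D4:**
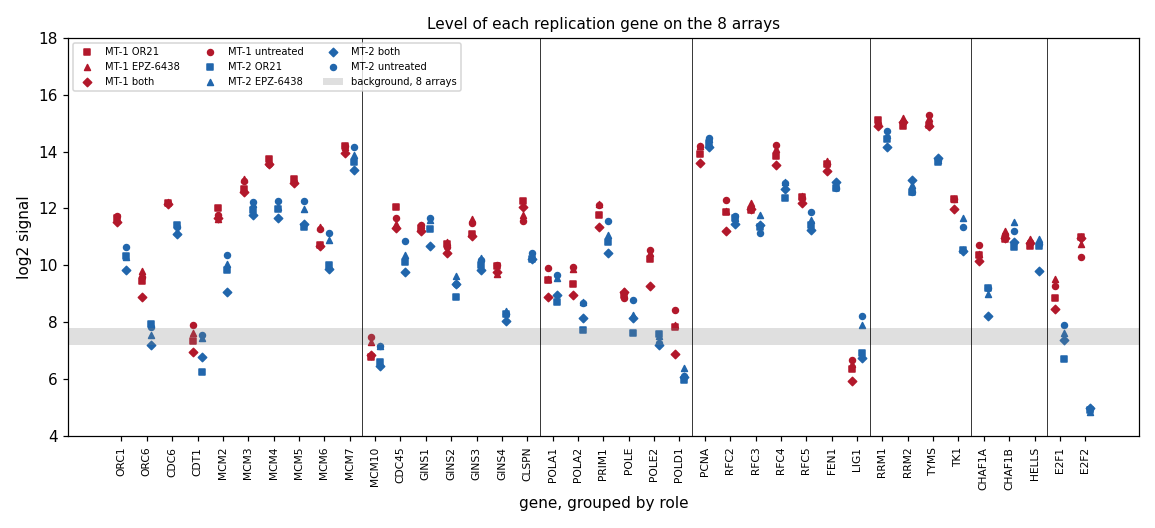
Level of each gene (horizontal axis, grouped by role) on the 8 arrays (vertical axis, log2 signal), with MT-1 in red left of MT-2 in blue, a marker shape for each treatment and the range of background in grey. Levels are comparable between arrays of a gene and not between genes; E2F2 lies at 10.31 to 11.00 in MT-1 and 4.83 to 4.98 in MT-2.

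E2F2 had the largest difference of the 39 genes. It averaged 10.75 ± 0.31 in MT-1 and 4.92 ± 0.06 in MT-2 (SD, n = 4 arrays each), higher by at least 3.14 once MT-2 is set at background. E2F2 and POLD1 reached the filter on low values through MT-1 arrays only, so no p is given for them; of the other 37 genes, 27 were higher and 1 lower in the test. POLE2 averaged 10.12 ± 0.57 in MT-1 and 7.39 ± 0.18 in MT-2, a difference of 2.73 in raw values (SE 0.22, limma adjusted p = 0.00013). It was above background on 2 of 4 MT-2 arrays, and was higher by at least 2.48 with MT-2 set at background. RRM2 averaged 15.05 ± 0.11 in MT-1 and 12.75 ± 0.21 in MT-2, a difference of 2.30 (SE 0.14, adjusted p = 5.3e-05), and its 4 arrays in MT-1 all lay above those of MT-2. MCM2 differed by 1.95 (SE 0.23, adjusted p = 0.00062), GINS4 by 1.62 (SE 0.15) and CHAF1A by 1.49 (SE 0.17).

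PCNA, GINS1 and CHAF1B did not pass between the lines. PCNA averaged 13.99 ± 0.29 in MT-1 and 14.34 ± 0.15 in MT-2, a difference of -0.35 (SE 0.14, limma adjusted p = 0.061), and its arrays overlapped. GINS1 differed by 0.03 (SE 0.17) and CHAF1B by -0.01 (SE 0.16), while their partners GINS2, GINS3 and GINS4 differed by 1.37, 1.26 and 1.62 and CHAF1A by 1.49. LIG1 passed with a difference of -1.09 in raw values (SE 0.21, limma adjusted p = 0.0045). It was above background on 0 of 4 MT-1 arrays and 2 of 4 MT-2 arrays. With MT-1 set at background, LIG1 was lower there by 0.16 or more, and the p-value does not belong to this bound. MCM6 differed by 0.52 (SE 0.17, limma adjusted p = 0.034) with arrays that overlapped. It did not pass with cyclic loess, where the difference was 0.02, nor without the OR21, EPZ-6438 or combination array of a line (0.42 to 0.56). POLA1 and HELLS differed by 0.24 and 0.27 with overlapping arrays.

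Genes with and without E2F letters in the promoter window had nearby medians with both compounds. The 21 genes with the letters, among them MCM6, PCNA and E2F1 shown above, had a median of -0.37 for MT-1 and -0.51 for MT-2. The 15 without had -0.35 for MT-1 and -0.63 for MT-2. No match says only that these letters are not in the window.

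Other genes of the pathway were read from lists of known function. Of 37 further replication genes, 9 were lower and 3 higher by 0.5 in MT-1 and 12 lower and 4 higher in MT-2 with both compounds, so the MT-1 share lower, 24.3%, was near that of all probe sets (25.7%), with medians of -0.14 for MT-1 (0.05 with cyclic loess) and -0.33 for MT-2. DBF4, the activator of the CDC7 kinase that fires origins, had changes of -0.73 for MT-1 and -0.92 for MT-2, and POLD2, a subunit of polymerase delta, of -1.14 for MT-1 and -0.30 for MT-2. Of 12 further genes of nucleotide supply, 8 were lower and 1 higher by 0.5 in MT-1 and 3 lower and 1 higher in MT-2, with medians of -0.91 for MT-1 and -0.29 for MT-2. UMPS, of pyrimidine synthesis, had changes of -1.54 for MT-1 and -0.65 for MT-2. RRM2B, the p53-inducible subunit of ribonucleotide reductase, had changes of 1.51 for MT-1 and 0.92 for MT-2, opposite in sign to most of the list.

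Of 11 further genes of chromatin replication, 0 were lower by 0.5 for MT-1 and 7 for MT-2 with both compounds, with medians of 0.11 for MT-1 (-0.12 with arrays centred on their medians) and -0.76 for MT-2. UHRF1, which brings the maintenance DNA methyltransferase to replicated DNA, read 12.71, 12.11 and 12.57 in MT-1 with OR21, EPZ-6438 and both, against 12.12 untreated. On the MT-2 arrays it read 11.55, 11.60 and 10.61, against 12.16 untreated, lowest with both. ASF1A, a histone chaperone, had changes of -0.43 for MT-1 and -1.50 for MT-2.

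Regulators of the G1 to S step had a median of -0.08 for MT-1 and -0.04 for MT-2 over 22 genes, and of 0.09 for MT-1 and 0.02 for MT-2 with cyclic loess. CDKN1A, the CDK inhibitor p21, read 6.99, 4.70 and 9.46 in MT-1 with OR21, EPZ-6438 and both, against 4.33 untreated, and was above background only with both, higher by at least 2.0. In MT-2 it read 12.96, 12.85 and 13.19, against 12.41 untreated, high on all 4 arrays. TFDP2, a DNA-binding partner of E2F factors, had changes of -1.91 for MT-1 and -0.99 for MT-2 with both. Of 25 mitotic genes, 1 was lower and 3 higher by 0.5 in MT-1 and 7 lower and 0 higher in MT-2, with medians of 0.19 for MT-1 (-0.04 with arrays centred on their medians) and -0.31 for MT-2. CCNB2, a mitotic cyclin, had changes of -0.44 for MT-1 and -0.87 for MT-2, and BIRC5, which encodes survivin, of -0.54 for MT-1 and -0.76 for MT-2. In limma 0 of all probe sets passed for both compounds, so no gene of these lists did, and the difference between the lists was not tested.

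Of 8 commonly used reference genes, 4 were lower by 0.5 for MT-1 and 1 for MT-2 with both compounds, with medians of -0.34 for MT-1 and -0.04 for MT-2. HPRT1 had changes of -0.83 for MT-1 and -0.43 for MT-2, and SDHA of -0.57 for MT-1 and -0.58 for MT-2. The MT-1 median of the reference genes equalled that of the replication genes at this precision, and the MT-2 medians were -0.04 and -0.57.

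The mean of the 39 genes, each centred on its mean in its line, was -0.00, 0.12 and -0.26 in MT-1 with OR21, EPZ-6438 and both, against 0.14 untreated. The same mean was -0.17, 0.19 and -0.27 in MT-2, against 0.25 untreated. The genes outside all lists whose pattern over the 8 arrays was most like it were H2AC14, SUMO4, H2BC11, H2AC8 and MRPL19, with Pearson correlations of 0.99 to 0.98 over 8 arrays that share lines and scaling. H2BC11, a histone H2B gene, read 12.65, 13.01 and 12.24 in MT-1 with OR21, EPZ-6438 and both, against 13.29 untreated. The MT-2 levels of H2BC11 were 11.50, 12.56 and 11.25, against 12.82 untreated, low on both arrays with OR21. Histone genes have near-identical copies, so their probe sets may read several genes, and SUMO4 was above background on 4 arrays only. Among the members, E2F2 (-0.47), RRM2 (-0.23) and CLSPN (-0.09) were least like the mean.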

How the data were processed

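Gene expression was measured in 8 RNA samples of 2 cell lines, 1 array per line and treatment. The authors deposited log2 values per probe set, made with RMA per the submitters' processing notes; background correction and normalization settings, and the genome build: not given in the sources used here. Gene names came from the platform annotation. Of 21448 transcript probe sets, 12942 whose highest of 8 values reached 6.573, the median of all, were tested in limma 3.58.1 (R 4.3.3) with cell line and treatment as terms, and adjusted by Benjamini-Hochberg over all of them. The script was tested on simulated data. Changes within a line have no replicate and are described by counts past 0.5 and 1 log2 units. The number of arrays limits the precision, and the p-values measure the spread between these arrays only.

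The genes, lists and rules were chosen with earlier results of these data known. Values per array are given for up to 2 members of each role (highest mean change with both compounds, highest difference between lines), for E2F1 and PCNA, for the 3 members whose changes differed most between lines, and for 2 genes of each other list; further members are given by their changes. Alternatives changed the scaling, the filter, the floor, the variance model and the array left out. Sequences are from RefSeq. Figures were drawn with matplotlib 3.10.9.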

Additional observations from a re-analysis of the deposited data

Results flagged for a closer look

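CDC45 moved in opposite directions in the lines under OR21 alone, by 0.390 in MT-1 and by -0.740 in MT-2. POLE moved in opposite directions under EPZ-6438 alone, by 0.264 in MT-1 and by -0.509 in MT-2. Each is a change of at least 0.25 on the log2 scale in both lines with opposite signs, from 1 array per line and treatment. The median residual SD of the replication genes, which is for 1 array value, was 0.222 on the log2 scale. A change takes 2 arrays and so has a wider spread, which this threshold need not exceed. The share of all probe sets that meet the same rule is not given, so whether such opposite changes are unusual was not tested. The difference between the lines was not tested, and the doses differed.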

How the results depend on the processing

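The counts of genes passing the treatment tests were 0 under every scaling, filter, floor, variance model and left-out array tried. With an unadjusted p under 0.05 in place of the adjusted one, they were 8 for OR21, 12 for both compounds, 2 for both against OR21 and 8 for both against EPZ-6438. The median change with both compounds in MT-1 was -0.58 with each array centred on its median; that array with both compounds had the highest median of the 8. Between the lines, 30 genes passed, where 63.4% of all probe sets did, 24 with cyclic loess, and 27 to 30 with 1 array left out. The shares of all probe sets with cyclic loess and with 1 array left out are not given. These counts are over all 39 genes, E2F2 and POLD1 included, which reached the filter through MT-1 arrays only. Over all results that answer a comparison, 143 alternatives left the value on its side of the threshold or within the spread and 5 did not. For single genes 438 did, 9 lost and 3 gained a call, and 0 reversed. No paired analysis was possible by replicate number because each group is 1 array; the treatment tests already compare arrays within each line. Leaving out an array of a line gives no value for the change in that line. Low signal limits 8 of the 39 genes, which were not above background on every array. The cause of the other shifts was not tested.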
